A study of Mus musculus with 6 samples.

Results

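The 10 genes described here carry the insulin and insulin-like growth factor (IGF) signal from the cell surface to the nucleus, and were taken by symbol from a table of 54385 genes. They are the receptors Insr and Igf1r, the receptor substrates Irs1 and Irs2, the phosphoinositide 3-kinase (PI3-kinase) subunit Pik3r1, the kinases Akt1 and Akt2, the transcription factor Foxo1 and the adaptors Grb10 and Grb14. All 10 were found, and all 10 passed the filter on low counts that left 14767 genes for testing. Polyadenylated RNA came from whole interscapular brown fat of C57BL/6N mice held at 5 °C for 24 hours after 20 weeks on chow, and the series text gives an age of 20 weeks. The control group held 3 libraries from mice of genotype Adcy3-FL/FL/Adipoq-wt/wt and the knockout group 3 libraries from mice of genotype Adcy3-FL/FL/Adipoq-wt/cre, so both groups carried floxed Adcy3 alleles and no group kept in the warmth is part of the comparison. Cre was under the Adipoq promoter, which is active in adipocytes, and the other cells of the tissue keep the gene. In such bulk RNA, fewer cells of a type and less RNA per cell cannot be told apart.

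Insulin and IGF1 bind related receptor tyrosine kinases, which phosphorylate the IRS proteins. These recruit PI3-kinase through its regulatory subunit, and the lipid it makes activates Akt, which drives glucose uptake and lipid synthesis and keeps FoxO factors out of the nucleus. Grb10 and Grb14 bind the activated receptors and dampen the signal. Brown fat is among the tissues most responsive to insulin, and cold raises its glucose uptake.

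Libraries held between 13956786 and 17538044 estimated counts, and Adcy3 stood at 134.6 to 169 counts per 1000000 counts (CPM) in controls and 21.9 to 30.3 CPM in knockouts. The level of skeletal muscle transcripts separated the groups, although none of the markers was called alone: 20 muscle markers took 2.19%, 1.96% and 1.66% of the reads counted in the controls (libraries 1, 2 and 3 in order), and 0.931%, 0.0723% and 0.00938% in the knockouts. Knockout library 1 stood apart in another way too, since transcript length and GC content accounted for 13.2% of the variance of its deviations from the gene means, against 0.654% to 3.43% in the other libraries. The summed level of 10 fibroblast and matrix markers was 586 to 882 CPM in controls and 332 to 535 CPM in knockouts. That of 8 white adipocyte markers was 97.05 to 129.5 and 63.7 to 73.4 CPM, and that of 8 macrophage markers 77.7 to 146 and 61.5 to 137 CPM. The 10 brown adipocyte markers, which check the labelled tissue, summed to 7910 to 8802 CPM in controls and 9982 to 11020 CPM in knockouts, and no marker of these 5 lists was at 0 throughout a group. All knockouts lay above all controls for 5 of the 10 brown adipocyte markers, against 7.63% of all genes, and the others overlapped.

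In cold-exposed brown fat of the adipocyte Adcy3 knockouts, the regulatory subunit Pik3r1 stood at about 54.7% of its control level and Grb10 at 70.7%. Each was below every control in all 3 knockout libraries. The insulin receptor, both Akt kinases, Foxo1 and Grb14 had log2 fold changes between -0.08 and 0.17. For the receptor substrates Irs1 and Irs2, the SD within 1 of the groups was larger than the difference between the group means. Tested by edgeR (quasi-likelihood F, Benjamini-Hochberg over all 14767 genes), 0 of the 10 were called at an adjusted p under 0.05, where 0.0609% of all genes were called. At an unadjusted p under 0.05 the count was 2 of 10 (Pik3r1 and Grb10), against 10.5% of all genes. DESeq2 called 1 of 10, Pik3r1, where it called 1.87% of all genes lower. With limma-voom 0 of 10 were called, beside 6 genes higher and 27 lower of all 14767. The 3 knockout libraries lay below all controls for 3 of 10 genes (Pik3r1, Grb10 and Igf1r), against 10.8% of all genes, and above them for 1 of 10 (Akt2), against 7.63%. The median log2 fold change of the 10 genes was -0.16, beside 0.01 for all genes tested.

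**Figure D1:**
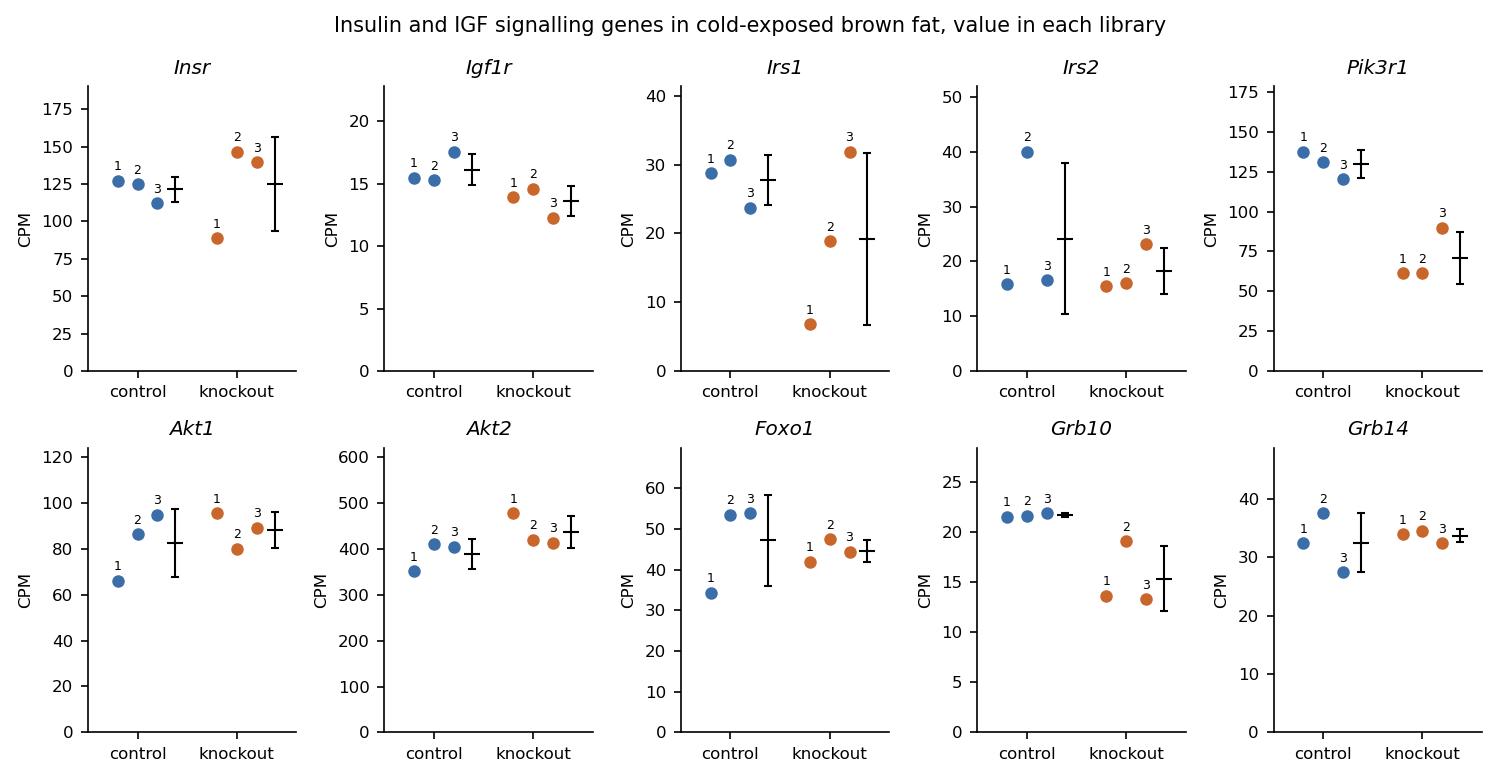
CPM (vertical axes, each from 0) of the 10 genes in each of the 3 control (blue) and 3 knockout (orange) libraries, numbered by replicate, with the mean and SD in black. The groups do not overlap for Pik3r1, Grb10 and Igf1r (knockouts below, as for 10.8% of all genes) and for Akt2 (knockouts above, 7.63%). Irs1 in knockout library 1 (6.84 CPM) and Irs2 in control library 2 (40.0 CPM) lie far from the other libraries of their groups.

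Levels of different genes can be compared only per length, here as CPM per kilobase of exon. In controls Akt2 was the highest of the 10 at 54.5 ± 4.50 CPM per kb (SD, n = 3), followed by Akt1 at 20.1 ± 3.60, Pik3r1 at 12.8 ± 0.86 and Insr at 8.84 ± 0.60. These 4 followed each other with no overlap between neighbours over the 3 control libraries. Next, Foxo1 (5.45 ± 1.29 CPM per kb), Grb14 (4.51 ± 0.70), Irs2 (3.82 ± 2.17) and Irs1 (3.03 ± 0.40) followed, and neighbours among these 4 overlapped. Grb10 (2.38 ± 0.02) and Igf1r (0.96 ± 0.07) were lowest, below the other 8 in each control library. In knockouts the order was the same except that Insr (9.09 ± 2.30 CPM per kb) and Pik3r1 (7.03 ± 1.62) changed places, and these neighbours overlapped.

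**Figure D2:**
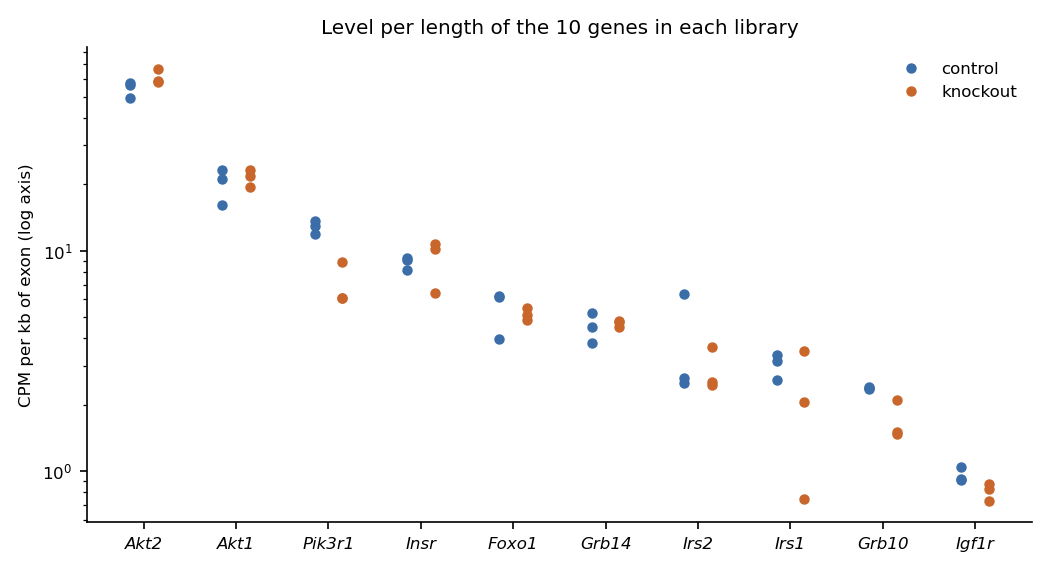
Level per length (CPM per kb of exon, log axis) of the 10 genes in each control (blue) and knockout (orange) library, ordered by the control mean. Akt2 is highest and Igf1r lowest in both groups, and Pik3r1 is the gene whose points separate most between groups.

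Neither receptor was called. Insr, the insulin receptor (ENSMUSG00000005534, GRCm38 chromosome 8, 3122061 to 3279617, minus strand), stood at 127, 125 and 112 CPM in the controls and at 88.6, 147 and 140 CPM in the knockout mice, in the order of their libraries. Knockout library 1 was the lowest of all 6 and the other knockouts were above every control, so the groups overlapped on both sides. edgeR put the log2 fold change at 0.04 ± 0.19 (SE, 95% interval -0.41 to 0.49, adjusted p = 0.967). Without knockout library 1 it was 0.24 ± 0.11 (SE, edgeR adjusted p = 0.305). Igf1r, the IGF1 receptor (ENSMUSG00000005533, chromosome 7, 67952827 to 68233668, plus strand), stood at 15.5, 15.3 and 17.6 CPM in the controls and at 13.9, 14.6 and 12.3 CPM in knockouts. All knockouts lay below all controls, by a narrow margin, at 84.5% of the control mean (log2 fold change -0.24, 95% interval -0.57 to 0.08, edgeR adjusted p = 0.596). Per length, the Insr level was 9.27 ± 1.28 times the Igf1r level in controls and 11.3 ± 3.17 times in knockouts (SD, n = 3 per group). That ratio overlapped between the groups (two-sided exact permutation p = 0.5, adjusted p = 0.667 over 4 ratios, where 3 against 3 cannot go below 0.1).

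The receptor substrates were the most variable members. Irs1 (ENSMUSG00000055980, chromosome 1, 82233101 to 82291416, minus strand), the docking protein first described in insulin signalling, stood at 28.7, 30.8 and 23.7 CPM in the controls and at 6.84, 18.8 and 31.9 CPM in knockouts. Knockout library 1 was 2.01 log2 units under the mean of the controls, while knockout library 3 was above every control. The log2 fold change was -0.53 with a 95% interval of -1.56 to 0.50 (edgeR adjusted p = 0.735), and without knockout library 1 it was -0.13 ± 0.21 (SE, adjusted p = 0.838). In knockouts Irs1 was higher where muscle markers were scarcer, the reverse of the order between the groups. With the mean log2 level of the muscle markers as a covariate, Irs1 was called lower (log2 fold change -2.20 ± 0.29 (SE), edgeR adjusted p = 0.0130), 1 of 10 members where 0.0677% of all genes were called lower. With the muscle share of counts as the covariate it was not called (-3.26 ± 0.98 (SE), adjusted p = 0.299). The muscle marker level was 9.00 to 9.45 in controls and 1.72 to 8.37 in knockouts, and the shares did not overlap either. Muscle content and genotype therefore cannot be told apart by these fits. The gene Gm9747 lies on the opposite strand and shares 2822 exon bases with Irs1, and its counts summed to 706 in controls and 393 in knockouts, beside 1379 and 927 for Irs1. Counting is not stated to use strand, so whether reads of the pair were told apart there is not known. Summed, the counts of the pair stood at a log2 fold change of -0.61 ± 0.28 (SE, edgeR adjusted p = 0.502).

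Irs2 (ENSMUSG00000038894, chromosome 8, 10984681 to 11008458, minus strand), the substrate whose gene is also switched on by FoxO factors and by cyclic AMP in other tissues, stood at 15.8, 40.0 and 16.6 CPM in the controls and at 15.5, 16.0 and 23.1 CPM in knockouts. Control library 2 was the highest of the 6, and the other 5 lay between 15.5 and 23.1 CPM. The log2 fold change was -0.41 (95% interval -1.25 to 0.43, edgeR adjusted p = 0.753) and turned to 0.15 without control library 2. Per length, Irs1 stood at 0.92 ± 0.37 times Irs2 in controls and at 0.69 ± 0.34 times in knockouts (SD, n = 3 per group; two-sided exact permutation p = 0.5, adjusted p = 0.667).

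Pik3r1 (ENSMUSG00000041417, chromosome 13, 101680563 to 101768217, minus strand) encodes the p85-alpha regulatory subunit and, from a start inside the gene, shorter forms that lack part of it. The table counts the gene as a whole and does not separate these forms. It was measured at 137.5, 131 and 120 CPM in the controls and at 61.4, 61.4 and 89.7 CPM in the knockouts. The controls lay close together and all 3 knockouts were well below the lowest control. Its log2 fold change of -0.87 ± 0.17 (SE, 95% interval -1.27 to -0.47) ranked 101 of 14767 genes by p and did not pass over all genes (edgeR adjusted p = 0.148). The DESeq2 adjusted p was 0.000348 at a log2 fold change of -0.87. It was also called lower by edgeR without knockout library 1 (-0.78, adjusted p = 0.0184, 5.35% of all genes called lower there) and with no filter on low counts (-0.86, adjusted p = 2.17e-05, 2.45% called lower). Without the filter, however, the SE fell from 0.448 to 0.183 for Irs1 and from 0.365 to 0.185 for Irs2. These came near the 0.168 of Pik3r1, so that fit took little account of the spread of each gene. Over 17 alternatives the log2 fold change of Pik3r1 lay between -1.22 and -0.78. The adjusted p lay between 2.17e-05, from the unfiltered fit, and 0.569.

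Beside the muscle markers, Pik3r1 was as low in knockout library 1, which held 0.931% muscle counts, as in library 2, which held 0.0723%, and it was highest of the 3 in library 3, which held 0.00938%. With the muscle marker level as a covariate the log2 fold change was -1.22 ± 0.21 (SE, edgeR adjusted p = 0.0639), and with the muscle share it was -1.22 ± 0.44 (SE, adjusted p = 0.302). Neither covariate overlapped between the groups, so muscle content and genotype cannot be told apart for Pik3r1 by these values. Correction for transcript length and GC content left -0.79 ± 0.16 (SE, adjusted p = 0.162). The summed level of the fibroblast and matrix markers was also lower in each knockout library than in each control. So was that of the white adipocyte markers. All knockouts lay below all controls for 6 of 10 and 5 of 7 tested markers of these lists, against 10.8% of all genes. The part of either list in the Pik3r1 difference was not tested. By Pearson correlation of log2 CPM over the 6 libraries, among 9801 other genes with a mean of at least 5 CPM, the second and the third most like Pik3r1 were the gene model Gm43305 (0.98) and Otud7b, a deubiquitinase (0.98). Otud7b stood at 33.8 ± 1.43 CPM in the controls and 25.5 ± 2.13 CPM in the knockouts (SD, n = 3 per group). These values share libraries and scaling and are a description.

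Promoter windows of Pik3r1 and Grb10 are shown because these are the members whose 95% intervals did not reach 0. Windows run from 250 bases before a RefSeq start to the 50 bases from it on (GRCm38.p6), and 9 of the 10 genes matched, with 15 windows. Capitals mark the core of the cyclic AMP response element, TGACG, on either strand, which is part of the full element TGACGTCA. The Pik3r1 windows lie at chr13:101768168-101768467 for the upstream start and chr13:101692581-101692880 for the start inside the gene, and the Grb10 windows at chr11:12037371-12037670 and chr11:12027922-12028221, all on the minus strand and written 5′ to 3′.
Pik3r1 upstream start: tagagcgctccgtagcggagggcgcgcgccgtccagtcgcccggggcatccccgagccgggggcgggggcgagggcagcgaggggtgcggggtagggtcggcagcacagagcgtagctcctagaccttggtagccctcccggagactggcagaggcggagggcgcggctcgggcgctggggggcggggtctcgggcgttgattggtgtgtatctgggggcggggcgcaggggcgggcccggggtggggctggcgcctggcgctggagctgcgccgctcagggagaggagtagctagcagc
Pik3r1 inner start: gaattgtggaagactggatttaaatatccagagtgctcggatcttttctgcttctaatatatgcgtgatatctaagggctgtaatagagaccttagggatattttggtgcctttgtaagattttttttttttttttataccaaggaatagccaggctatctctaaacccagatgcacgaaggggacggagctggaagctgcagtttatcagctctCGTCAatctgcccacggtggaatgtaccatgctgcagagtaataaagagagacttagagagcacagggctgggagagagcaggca
Grb10 upstream start: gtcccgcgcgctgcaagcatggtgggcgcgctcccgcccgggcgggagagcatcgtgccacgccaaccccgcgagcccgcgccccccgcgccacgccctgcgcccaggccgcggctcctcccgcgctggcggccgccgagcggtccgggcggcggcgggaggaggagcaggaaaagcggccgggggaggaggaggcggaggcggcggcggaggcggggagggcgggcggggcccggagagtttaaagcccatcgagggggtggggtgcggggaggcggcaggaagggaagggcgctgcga
Grb10 downstream start: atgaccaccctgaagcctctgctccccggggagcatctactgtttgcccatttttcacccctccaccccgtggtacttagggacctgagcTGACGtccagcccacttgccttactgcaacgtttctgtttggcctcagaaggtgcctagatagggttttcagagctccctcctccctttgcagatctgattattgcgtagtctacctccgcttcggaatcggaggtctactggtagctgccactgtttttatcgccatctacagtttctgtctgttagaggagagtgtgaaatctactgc

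The upstream windows were rich in G and C, at 75.7% for Pik3r1 and 80.0% for Grb10, and held no match. The inner Pik3r1 window was 43.7% G and C and held 1 core match on the reverse strand that begins 35 bases before the start. The downstream Grb10 window was 52.3% G and C and held 1 forward core match that begins 160 bases before the start. Over all members, 5 of 15 windows held the core, in Akt2, Grb10, Irs1 and Pik3r1, beside 20.8% of all 32851 RefSeq windows. The full element was in 0 of 15 windows and in 1.79% of all windows. The FoxO motif TGTTTAC was in 1 window, of Akt1 (3.65% of all windows), and the insulin response motif TGTTTTG in 2, of Irs1 and Irs2 (6.28% of all windows), both searched on either strand. A match is a stretch of letters and not a site shown to be bound.

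The Akt kinases were the most abundant members per length. Akt1 (ENSMUSG00000001729, chromosome 12, 112653821 to 112674884, minus strand), the form tied most to growth, stood at 66.0, 86.2 and 94.7 CPM in the controls and at 95.4, 79.9 and 89.1 CPM in knockouts, with overlapping groups (log2 fold change 0.10, 95% interval -0.27 to 0.46, edgeR adjusted p = 0.878). Akt2 (ENSMUSG00000004056, chromosome 7, 27591552 to 27640826, plus strand), the form that carries most of the insulin signal to glucose uptake, stood at 352, 410 and 404 CPM in the controls and at 478, 420 and 414 CPM in knockouts. All knockouts were above all controls, 2 of them by a small margin, at 112.5% of the control mean (log2 fold change 0.17, 95% interval -0.13 to 0.46, edgeR adjusted p = 0.694). Per length, Akt1 stood at 0.37 ± 0.04 times Akt2 in controls and at 0.35 ± 0.02 times in knockouts (SD, n = 3 per group; two-sided exact permutation p = 0.7, adjusted p = 0.7). Foxo1 (ENSMUSG00000044167, chromosome 3, 52268336 to 52353221, plus strand), the factor that Akt holds back, stood at 34.3, 53.5 and 53.8 CPM in the controls and at 42.0, 47.5 and 44.4 CPM in knockouts. The knockout values lay between the lowest control and the other 2 (log2 fold change -0.08, 95% interval -0.50 to 0.34, edgeR adjusted p = 0.922).

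**Figure D3:**
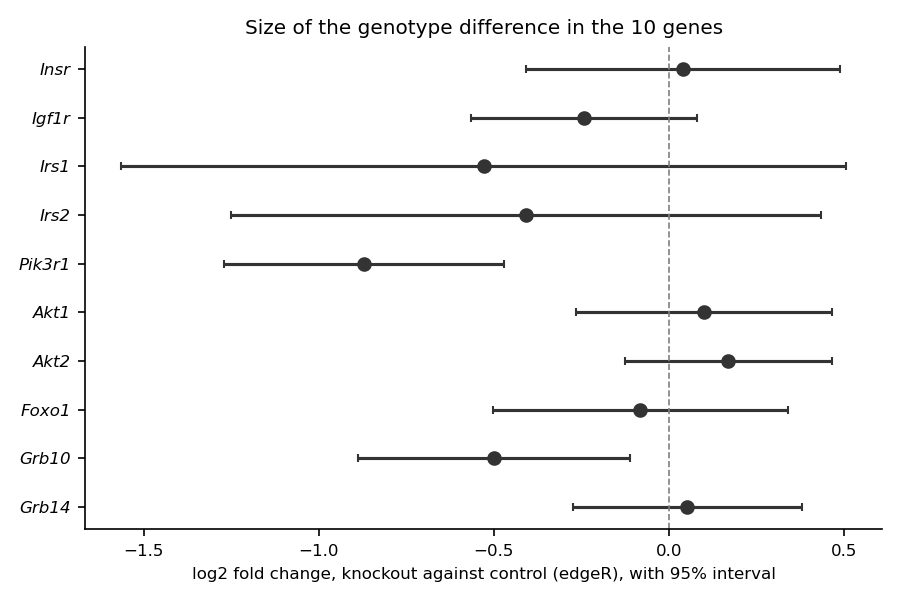
edgeR log2 fold change of knockout against control (horizontal axis) for the 10 genes, with 95% intervals for each gene alone. The intervals of Pik3r1 (-1.27 to -0.47) and Grb10 (-0.89 to -0.11) do not reach 0, and neither gene passed after adjustment over all genes tested.

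Neither of the related adaptors was called. Grb10 (ENSMUSG00000020176, chromosome 11, 11930508 to 12038683, minus strand), an imprinted gene whose product binds the insulin and IGF1 receptors and holds back the signal, stood at 21.5, 21.6 and 21.9 CPM in the controls and at 13.6, 19.0 and 13.3 CPM in knockouts. The controls were nearly equal, and every knockout was below them, library 2 by the least. edgeR gave a log2 fold change of -0.50 ± 0.17 (SE, 95% interval -0.89 to -0.11, edgeR adjusted p = 0.352, DESeq2 adjusted p = 0.266). It was negative in 17 of 17 alternatives and called in 0. Grb14 (ENSMUSG00000026888, chromosome 2, 64912476 to 65024987, minus strand), a receptor inhibitor of the same family, stood at 32.4, 37.5 and 27.4 CPM in the controls and at 34.0, 34.5 and 32.4 CPM in knockouts, with overlapping groups (log2 fold change 0.05, 95% interval -0.27 to 0.38, edgeR adjusted p = 0.938). Per length, the Grb10 level was 0.54 ± 0.09 times that of Grb14 in controls and 0.36 ± 0.07 times in knockouts (SD, n = 3 per group). The ratio was 0.525, 0.455 and 0.630 in controls and 0.317, 0.435 and 0.324 in knockouts, so the groups did not overlap (two-sided exact permutation p = 0.1, which 3 against 3 cannot go below, and adjusted p = 0.4).

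**Figure D4:**
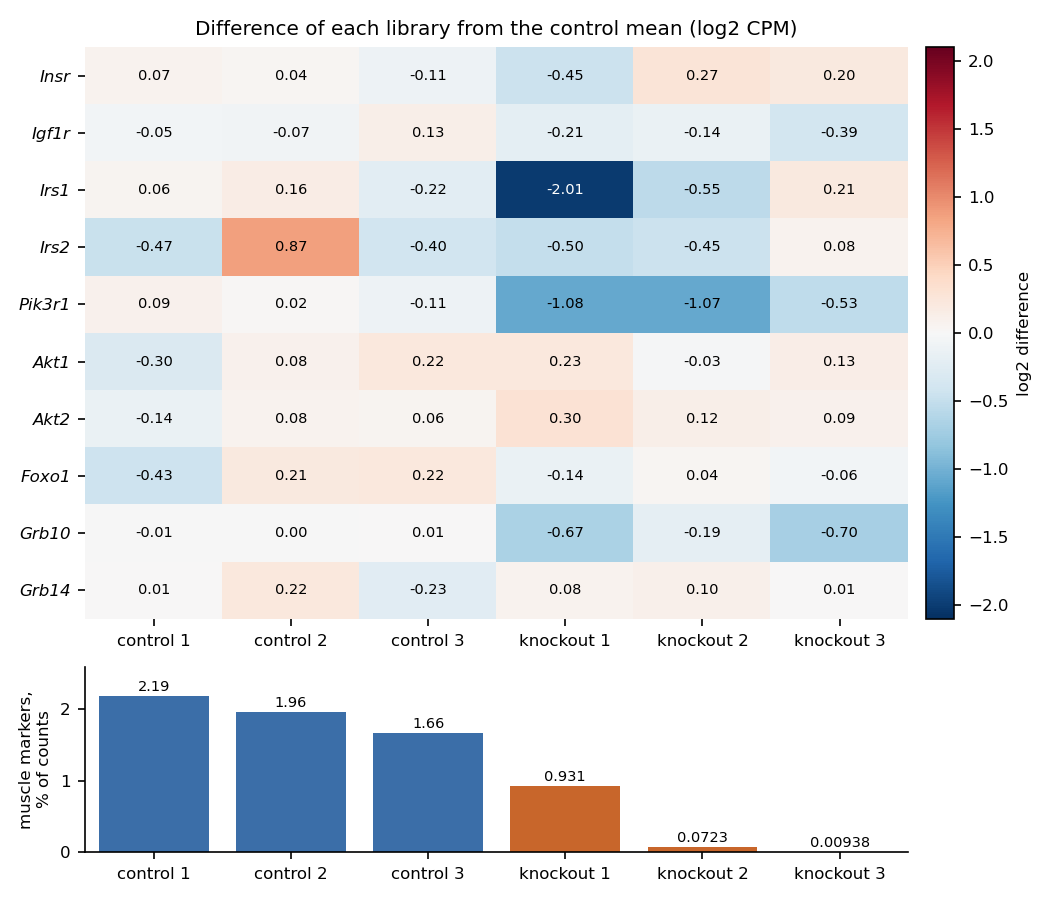
Upper panel, log2 CPM of each gene in each library minus the control mean of that gene. Lower panel, share of counts from 20 skeletal muscle markers in percent. Irs1 is lowest in knockout library 1 (-2.01), and Pik3r1 is at -1.08, -1.07 and -0.53 in knockout libraries 1, 2 and 3. Muscle shares of the knockouts (0.00938% to 0.931%) all lie below those of the controls, so muscle content and genotype cannot be told apart.

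The rest of the pathway was read from 7 lists by role, of which 82 of 86 genes were tested. None of the 82 was called by edgeR in either direction, where 0.0609% of all genes were called. An unadjusted p under 0.05 was found for 5 of 82, where 10.5% of all genes had one. With limma-voom 0 of 82 were called, beside 6 genes higher and 27 lower of all 14767. DESeq2 called 2 of 82 lower, Igf1 and Fbxo32, where it called 1.87% of all genes lower. Without knockout library 1, edgeR called 8 of 82 lower, where it called 5.35% of all genes lower. All knockouts lay above all controls for 2 of the 82 and below them for 11, against 7.63% and 10.8% of all genes. The median log2 fold change over the 82 was -0.06.

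The ligands and binding proteins had the lowest median of the 7 lists, -0.47, with 9 of 11 tested genes negative. Igf1, the growth factor made by many cells of fat, stood at 21.4, 14.2 and 16.6 CPM in the controls and at 8.19, 7.17 and 7.01 CPM in knockouts. The knockouts lay together, all below the controls, at 43.0% of the control mean. Its log2 fold change was -1.22 ± 0.19 (SE, edgeR adjusted p = 0.0919, DESeq2 adjusted p = 2.56e-05), rank 29 of all genes by p, and it was called without knockout library 1 (-1.29, edgeR adjusted p = 0.00344). Igfbp5, an IGF-binding protein, stood at 79.9 ± 1.88 CPM in the controls and 57.6 ± 6.50 CPM in the knockouts (SD, n = 3 per group). Igfals, which stabilises circulating IGF, stood at 7.51 ± 1.02 and 4.32 ± 1.51 CPM. Both had all knockouts below all controls and did not pass (edgeR adjusted p = 0.236 and 0.356). The summed levels of the fibroblast and matrix markers and of the white adipocyte markers, given above, were lower in the knockouts as well. All knockouts lay below all controls for 6 of 10 and 5 of 7 tested markers, against 10.8% of all genes. The other 4 fibroblast and matrix markers overlapped. The part of either list in the result was not tested.

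Of 8 other PI3-kinase subunits, 6 were negative (median -0.22), with the smallest p for the catalytic subunit Pik3cb at 26.1 ± 2.44 CPM (control) and 20.4 ± 3.47 CPM (knockout; SD, n = 3 per group), not called (edgeR adjusted p = 0.502). Among the regulatory subunits, Pik3r2 had a log2 fold change of 0.08 and Pik3r3 of -0.29, and their differences from Pik3r1 were not tested. Of 11 other substrates and adaptors, 7 were positive (median 0.08), and Sh2b2, an adaptor of the insulin receptor, stood at 145 ± 18.4 and 179 ± 16.1 CPM with all knockouts above all controls (edgeR adjusted p = 0.520). The phosphatases and feedback inhibitors (10 of 16 negative, median -0.06) and the Akt kinases and activators (4 of 8, median 0.00) were centred near 0. In the first of these, Socs3, a cytokine-induced inhibitor of receptor signalling, was at 2.71, 4.81 and 6.43 CPM in controls and 3.05, 1.11 and 1.07 CPM in knockouts (edgeR adjusted p = 0.364). Akt substrates and the mTORC1 arm were positive for 10 of 14 genes (median 0.11), among them Slc2a4, the insulin-responsive glucose transporter, at 436 ± 21.9 and 504 ± 51.8 CPM (SD, n = 3 per group), where every knockout was above every control (edgeR adjusted p = 0.617). Sh2b2 and Slc2a4 were the only 2 of the 82 pathway genes with that separation, a smaller share than the 7.63% of all genes.

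FoxO factors and their targets were negative for 8 of 14 genes (median -0.17), and the 2 lowest of the list were Trim63 and a ubiquitin ligase of the same role, Fbxo32. Both are known for protein breakdown in skeletal muscle. Fbxo32 stood at 77.2, 70.9 and 38.5 CPM in the controls and at 35.1, 16.8 and 17.1 CPM in knockouts, with no overlap (log2 fold change -1.44 ± 0.35 (SE), edgeR adjusted p = 0.218, DESeq2 adjusted p = 0.000428). Trim63 followed the order of the muscle markers over the 6 libraries, at 20.0, 16.8 and 15.8 CPM in controls and 11.1, 1.37 and 0.0594 CPM in knockouts, the last of which is below the floor of 3 counts (0.178 CPM) in that library. Among the other targets, the stress-response gene Sesn1 was at 10.9 ± 1.04 and 8.31 ± 1.75 CPM (SD, n = 3 per group; edgeR adjusted p = 0.522) and Pdk4, which shuts off pyruvate oxidation, overlapped between groups at a log2 fold change of 0.08.

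**Figure D5:**
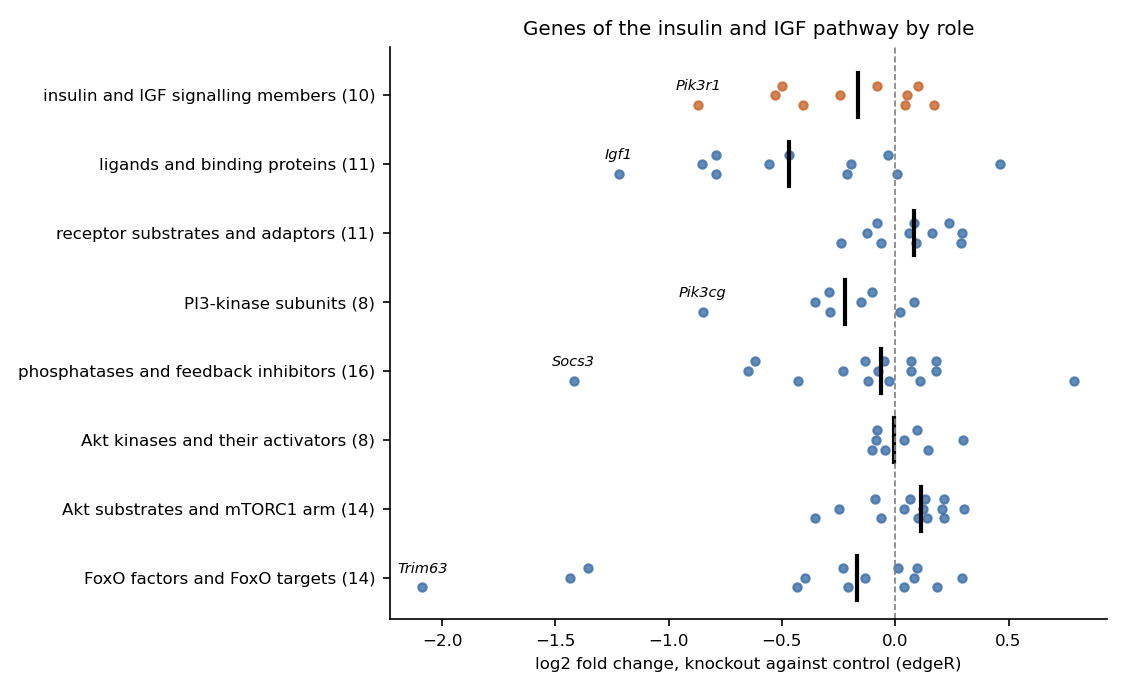
edgeR log2 fold change of knockout against control (horizontal axis) for the 10 genes (orange) and for 82 other pathway genes by role (blue), 1 point a gene, with the median of each list as a black bar and the number tested in brackets. The ligands and binding proteins have the lowest median (-0.47), and the lowest gene is named where it lies below -0.6.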

How the data were processed

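Values deposited by the authors are estimated counts for each gene, without normalization, in 6 libraries of polyadenylated RNA. The authors used StringTie, Salmon and edgeR on GRCm38, per the submitters' processing notes; for versions, annotation release and strand use, nothing is given in the sources used here. Groups and tissue were taken from the sample labels, since the series text names another depot and other replicate numbers. Columns were matched to samples by the names in the sample descriptions. Symbols, positions and exon lengths came from GENCODE vM21 (GRCm38), and 54131 of 54385 identifiers had a symbol.

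Counts were rounded, filtered with filterByExpr (minimum count 10, minimum total 15) and tested across all genes with edgeR 4.0.16 in R 4.3.3 (quasi-likelihood F test, TMM, genotype as the only term, two-sided, Benjamini-Hochberg). Each SE was obtained as log2 fold change over √F, and 95% intervals use the test's degrees of freedom. The common biological coefficient of variation was 25.2%. CPM uses TMM-scaled library sizes, and CPM per kb divides it by exon-union length. The floor of 3 counts was 0.172 to 0.203 CPM and covers counting error only. Ratios of members were compared with exact permutation tests. Fits were also run on simulated counts. The simulation held no difference in muscle content and no length or GC bias, so it could not check how the fits handle these. The labels call the libraries replicates of a genotype without naming the animals, so p-values reflect spread among these 6 samples, which may be technical. Within each group, libraries were further apart than sampling noise (chi-square per degree of freedom from 11.9 to 66.8).

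The 10 genes and the gene lists were chosen with earlier results of these data known. Named pathway genes are the 3 of each list with the smallest p, of which some are described; Pik3r2, Pdk4 and Gm9747 were chosen after their values were seen. As alternatives, DESeq2 1.42.0, limma-voom (limma 3.58.1), scaling by RLE or upper quartile, no filter, a minimum of 1 CPM in at least 3 libraries, a block for replicate number, offsets for length and GC (99.9% of tested genes had both), both together, the muscle marker share or mean log2 level as a covariate, and leaving out each library were run. The genes most like Pik3r1 were the 3 with the highest correlation, of which the first is not reported here. The sum of Irs1 and Gm9747 was added after seeing the data.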

Additional observations from a re-analysis of the deposited data

How the results depend on the processing

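Of 170 values of the 10 genes under 17 alternatives, 4 were called: Pik3r1 with DESeq2, without the low-count filter and without knockout library 1, and Irs1 with the muscle marker level as a covariate. The fit without the filter took little account of the spread of each gene, as described for Pik3r1. Direction was kept in every one of the 17 by 5 of the 10 genes (Igf1r, Irs1, Akt2, Pik3r1 and Grb10). The others changed sign, uncalled. Insr did so with the muscle share (-0.86) or muscle marker level (-0.42) as covariate, and Foxo1 with the replicate block and length and GC correction (0.015). With a library left out, the log2 fold change ran from -0.089 to 0.24 for Insr, -0.65 to 0.15 for Irs2, -0.052 to 0.18 for Akt1, -0.28 to 0.0037 for Foxo1 and -0.086 to 0.15 for Grb14. The members called lower numbered 0 in the fit described and 1 with DESeq2, with no low-count filter and with the muscle marker level, and 0 to 1 with a library left out.

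Among all genes tested, 4 were called higher and 5 lower. The counts were 31 and 276 with DESeq2, 6 and 27 with limma-voom, 111 and 782 with no low-count filter, 12 and 10 with the muscle marker level, and 3 and 0 with the muscle share. Leaving out a library gave 3 to 45 higher and 1 to 812 lower, the highest without knockout library 1. Of the other pathway genes, 2 were called lower with DESeq2, and 1 higher and 5 lower with no filter, and 0 to 8 lower with a library left out. Exon length cancels in the log2 difference of a ratio between groups. Computing the 4 ratios between members without exon length therefore could not change these differences and tests nothing. The 4 ratios were also recomputed with a library left out. Their log2 differences between groups ran from 0.083 to 0.50 for Insr to Igf1r, -0.85 to 0.018 for Irs1 to Irs2, -0.14 to 0.020 for Akt1 to Akt2 and -0.73 to -0.46 for Grb10 to Grb14. The sign turned for Irs1 to Irs2 without knockout library 1 and for Akt1 to Akt2 without control library 3. The causes of these changes were not tested.

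With the replicate number as a block (replicate block), 2 genes were called higher and 2 lower of all genes tested, and 2 and 1 with the length and GC correction as well; Pik3r1 was at -0.89 (edgeR adjusted p = 0.194). Same-numbered libraries correlated in their deviations at 0.09, 0.12 and 0.09, and each library correlated best with its own number. Libraries of unlike number correlated at -0.0823 to -0.0058. The labels do not say that the numbers pair the mice, so the fit described used no pairing. Whether the numbers mark a pairing is not known. The depth of the libraries puts every member far above the 3-count floor.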
